A study of Homo sapiens with 6 samples.

Results

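The class II HLA chain genes were followed in xenograft tumors of WM983-B, a human melanoma line long established in culture. The family was taken by name as 10 genes of the 60617 identifiers counted: HLA-DRA, HLA-DRB1, HLA-DRB5, HLA-DRB6, HLA-DPA1, HLA-DPB1, HLA-DQA1, HLA-DQA2, HLA-DQB1 and HLA-DQB2. The rule uses no measured value, but it was written with earlier results of these data known. RNA was sequenced from 6 xenograft tumors, 3 in a group labelled as systemically treated with anle138b and 3 in a group labelled as untreated. Anle138b, a small molecule of the diphenyl-pyrazole class, interferes with oligomers of α-synuclein, and the series title asks about class II expression under that interference. Every tumor carried the same cell line, so both groups describe 1 line and not melanoma in general. The host strain, the immune cells the host still had, the dose and the length of treatment are not given in the sources used here. The labels do not tie each tumor to its own animal, so the p-values given here reflect library-to-library spread, which may be technical.

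Class II molecules are pairs of an alpha and a beta chain that carry peptides to the cell surface, where CD4+ T cells read them. DR, DP and DQ are the 3 kinds that present peptides, and each has its own alpha and beta genes in the class II region of chromosome 6. Most cells keep these genes off; B cells, dendritic cells and macrophages express them, and interferon gamma can switch them on in other cells. The master regulator CIITA binds no DNA itself but docks on factors bound to the X and Y boxes that class II promoters share. Melanoma is known as a tumor in which the malignant cells themselves can express class II.

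The promoter stretch that holds the X and Y boxes is shown because these boxes are what the family has in common upstream of its genes. Promoters covered 250 bases before to 50 bases after each start, from RefSeq (GRCh38.p14), and 8 of the 10 members had an entry; HLA-DRA and HLA-DRB6 did not. Each stretch runs 5′ to 3′ on the strand of the gene, with the core of the X box and the Y box in capitals. In the order printed, the stretches lie at chr6:32589884-32589935 (minus strand), chr6:32530367-32530418 (minus), chr6:32666735-32666786 (minus), chr6:33075850-33075901 (plus), chr6:32637296-32637348 (plus) and chr6:32741281-32741333 (plus).
HLA-DRB1: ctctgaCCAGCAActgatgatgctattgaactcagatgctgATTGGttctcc
HLA-DRB5: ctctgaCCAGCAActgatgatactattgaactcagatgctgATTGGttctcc
HLA-DQB1: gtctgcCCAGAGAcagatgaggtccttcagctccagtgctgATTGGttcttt
HLA-DPB1: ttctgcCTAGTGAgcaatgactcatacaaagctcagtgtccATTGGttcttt
HLA-DQA1: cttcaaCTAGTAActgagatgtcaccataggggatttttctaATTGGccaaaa
HLA-DQA2: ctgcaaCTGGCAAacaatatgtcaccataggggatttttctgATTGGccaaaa

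The 2 DR beta stretches were nearly the same. HLA-DRB5 differed from HLA-DRB1 at 1 of 52 bases, HLA-DQB1 from HLA-DRB1 at 16, and HLA-DPB1 from HLA-DRB1 at 26. HLA-DQA2 differed from HLA-DQA1 at 8 of 53 bases. The letters searched, on both strands, were CNAGNNA followed by ATTGG with 33 to 37 bases from start to start, and they were chosen after the members' promoters had been read. HLA-DRB1, HLA-DRB5, HLA-DQA1, HLA-DQB1 and HLA-DPB1 held this pair, 5 of 8 members, against 0.786% of 35116 promoters of the same length. With 1 differing letter allowed, as in HLA-DQA2, all 8 held it in at least 1 entry, against 18.6% of promoters counted singly. The 8 members had 9 entries. The HLA-DPA1 entry at chr6:33080699-33080998 did not hold the pair, and the match in its other entry overlaps an untranslated region of that gene. HLA-DQB2 had 3 equally close matches. The stretches of these last genes are not printed. Singly the motifs are common: 86.2% of promoters held CNAGNNA and 34.6% held ATTGG. The Y box lay 46 bases upstream of the start in HLA-DRB1, 68 in HLA-DQA1 and HLA-DQA2, 88 in HLA-DQB1, 90 in HLA-DRB5 and 99 in HLA-DPB1. A match describes letters and not binding.

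The sample titles fell into 2 naming styles whose meaning is not given in the sources used here, and each style held both groups. A 4-library set held replicates 1 and 2 of each group, and a 2-library set held replicate 3 of each. Gene counts summed to 12400782 to 27599159 per tumor, with both libraries of the 2-library set deepest, so 3 counts, the limit that a count of 0 allows, stood for 0.109 to 0.242 CPM, the unit for counts scaled to a common library size. Naming set was a term in the fit because each set held both groups and libraries made or sequenced apart can differ in every gene. The sets did differ widely: 3157 of 20423 tested genes, 15.5%, stood at another level in the 2-library set (edgeR). Melanocyte and melanoma markers were at 14020 to 18990 CPM in sum, and 0 of the 8 were called for treatment.

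HLA-DRA, the single alpha chain of DR, had the largest change of the family. Its level was 40.2, 35.5 and 149.5 CPM in anle138b replicates 1, 2 and 3 and 0.487, 0.0741 and 1.53 CPM in untreated replicates 1, 2 and 3, after scaling libraries by the TMM method. All treated tumors stood above all untreated tumors, and replicate 3 was the highest of each group. HLA-DRA (chromosome 6, 32439842 to 32445046, plus strand, GRCh38) rose by 6.72 ± 0.23 on the log2 scale (SE, n = 3 per group; edgeR's quasi-likelihood F test, adjusted p = 2.84e-06), or 105-fold. Within the 4-library set 971 treated against 9 untreated counts gave a ratio of 126 (95% counting interval 66.2 to 277). In the 2-library set the ratio was 97.9 (70.6 to 139.9). Reads carry no molecular identifiers, so such intervals cover counting error only.

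The DR beta chains pair with HLA-DRA. HLA-DRB1 is the most polymorphic of them and is present on every haplotype, while HLA-DRB5 and the pseudogene HLA-DRB6 sit on some haplotypes only. Whether the line carries HLA-DRB5 and HLA-DRB6 is not given in the sources used here. HLA-DRB1 (chromosome 6, 32578769 to 32589848, minus strand) was at 7.65, 7.27 and 30.9 CPM in treated and 0.183, 0.370 and 3.14 CPM in untreated tumors. The groups did not overlap, although untreated replicate 3 stood far above the other untreated tumors. The gene rose by 3.78 ± 0.29 on the log2 scale (adjusted p = 0.000399, edgeR), with 4.33 in the 4-library set and 3.25 in the 2-library set as differences of log2 CPM. HLA-DRB5 (32517343 to 32530287, minus strand) was at 5.12, 4.63 and 16.8 CPM against 0.244, 0.370 and 1.49 CPM and rose by 3.68 ± 0.24 (adjusted p = 0.00016, edgeR). HLA-DRB6 (32552713 to 32560022, minus strand), a transcribed pseudogene, was at 3.59, 2.16 and 11.1 CPM against 0.305, 0.296 and 1.87 CPM and rose by 2.82 ± 0.30 (adjusted p = 0.00221, edgeR). In both genes the groups were apart and replicate 3 was highest on either side.

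HLA-DPA1 was the only member far above the counting floor in every untreated tumor. This alpha chain gene of DP (chromosome 6, 33064569 to 33080775, minus strand) was at 80.3, 76.8 and 109.4 CPM in treated and 17.8, 15.9 and 17.8 CPM in untreated tumors. The untreated values lay close together, and every treated tumor was above them. It rose by 2.36 ± 0.12 on the log2 scale (adjusted p = 3.01e-05, edgeR), or 5.13-fold. HLA-DPB1, the beta chain gene of DP (33075926 to 33087201, plus strand), was at 19.3, 16.2 and 25.3 CPM in treated and 0.731, 0.296 and 1.15 CPM in untreated tumors. It rose by 4.75 ± 0.24 (adjusted p = 3.01e-05, edgeR), or 26.9-fold. The beta chain thus took 19.4%, 17.4% and 18.8% of DP counts in treated and 3.95%, 1.83% and 6.04% in untreated tumors. The groups did not overlap (two-sided exact permutation p = 0.1, the smallest that 3 against 3 allows; adjusted p = 0.18 over 9 shares). The exons of these neighbours overlap by 96 bases on opposite strands, and the library kit does not mark strand, so reads there cannot be told apart.

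The DQ genes were on average the lowest of the family per length of transcript in both groups, and HLA-DQB1 was the 1 of 4 with enough counts for a test. HLA-DQB1 (chromosome 6, 32659467 to 32668383, minus strand), the DQ beta chain, was at 1.38, 0.799 and 6.05 CPM in treated and 0.305, 0.222 and 1.57 CPM in untreated tumors. Untreated replicate 3 stood above treated replicates 1 and 2, so the groups overlapped over all 6 tumors but not within either naming set. It rose by 1.96 ± 0.31 on the log2 scale (adjusted p = 0.0182, edgeR). That call was lost under 7 of 15 alternatives, among them leaving out replicate 1 or 3 of either group (adjusted p = 0.0586, 0.0698, 0.32 and 0.234 without anle138b 1, untreated 1, anle138b 3 and untreated 3). A test against a change of at least 2-fold did not call it either (adjusted p = 0.572). Of its exon bases 241 lie opposite the antisense gene HLA-DQB1-AS1.

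The other DQ genes are given as counts. HLA-DQA1 (32628179 to 32647062, plus strand), the DQ alpha chain, had 6, 4 and 124 counts in treated and 0, 0 and 7 in untreated tumors. In the 4-library set the ratio was 3.90 with 3 counts over both untreated libraries set as the floor (10 against 0 counts, 95% counting interval from 2.62 upward). In the 2-library set HLA-DQA1 was 14.8-fold higher (95% counting interval 6.96 to 37.5). HLA-DQA2 (32741342 to 32747215, plus strand), its less polymorphic paralog, had 9, 5 and 122 against 1, 3 and 12 counts, with ratios of 4.09 (1.29 to 17.1) and 8.48 (4.68 to 16.9) by set. HLA-DQB2 (32756098 to 32763534, minus strand), the matching beta paralog, had 7, 5 and 53 against 5, 2 and 6 counts, with ratios of 2.00 (0.727 to 6.01) and 7.37 (3.17 to 21.0). Only anle138b replicate 3 held more than 12 counts of any of these 3 genes. Leaving out anle138b replicate 2 or untreated replicate 2 let HLA-DQA2 pass the filter, and edgeR then called it (log2 change 2.87 and 3.06, adjusted p = 0.00116 and 0.0144). The gene entered those fits through the treated tumors, so the calls are a description.

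**Figure D1:**
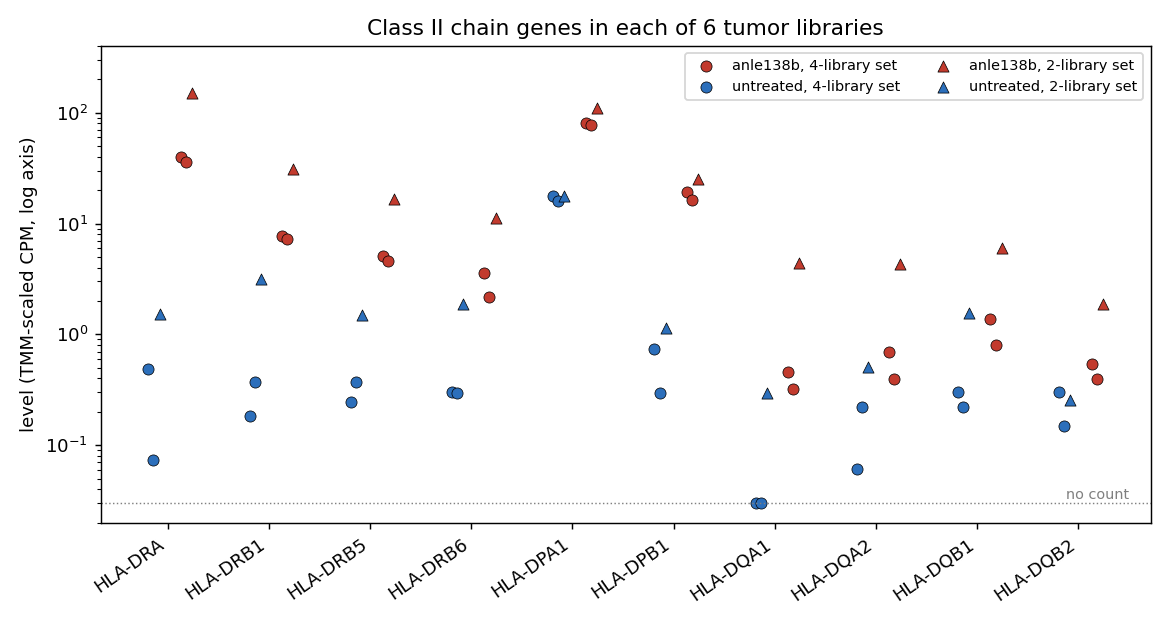
TMM-scaled CPM of the 10 class II chain genes (log axis) in each tumor, red for anle138b and blue for untreated, circles for the 4-library set and triangles for the 2-library set; the dotted line marks tumors with no count. The treated points stand above the untreated points of the same shape for every gene, and the triangles stand above the circles of the same color for every gene but HLA-DQB2, narrowly so for HLA-DPA1 in untreated tumors.

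Counted over the family, 7 of the 10 members passed the low-count filter, 7 rose and 0 fell, while 0.656% of the 20423 tested genes were called higher and 0.397% lower, 1.05% in all. The median log2 change of the 7 was 3.68, and that of all tested genes was -0.01. For 6 of the 7 the untreated tumors did not all reach the filter's cutoff of 0.659 CPM, so those genes entered the test through the treated tumors, and the count is a description. All treated tumors lay above all untreated tumors for 8 of the 10 members (HLA-DQA2 and HLA-DQB1 overlapped), as for 4.03% of tested genes. Within each naming set the treated tumors lay above the untreated ones for 10 of 10, as for 9.52% of tested genes. Summed counts of related or overlapping members do not depend on how reads were split between them. All 5 sums rose (edgeR over 20421 features): DRA by 6.72, DRB by 3.59 ± 0.22, DP by 2.59 ± 0.12, DQA by 3.25 ± 0.38 and DQB by 1.91 ± 0.30 on the log2 scale, with adjusted p = 2.84e-06, 0.000107, 1.41e-05, 0.00371 and 0.0171. With replicate 3 of either group left out, 3 of the 5 sums were called. Without the naming set term, HLA-DPA1 and HLA-DPB1 were the 2 members called (adjusted p = 0.00992 and 0.0214, against 0.0748 for HLA-DRA), and 9 genes, 0.0441%, were called in all.

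Levels of different genes were compared per kilobase of exon (RPKM). In treated tumors HLA-DRA was highest at 58.7 ± 50.4 RPKM (SD, n = 3), followed by HLA-DPA1 at 15.5 ± 3.12, HLA-DRB1 at 12.4 ± 10.99, HLA-DPB1 at 7.26 ± 1.66, HLA-DRB5 at 7.02 ± 5.45 and HLA-DRB6 at 4.24 ± 3.63. The DQ genes followed at 1.18 ± 1.43 for HLA-DQA2, 0.559 ± 0.587 for HLA-DQB1, 0.462 ± 0.402 for HLA-DQB2 and 0.249 ± 0.333 for HLA-DQA1. For 8 of the 9 neighbouring pairs in this order the ranges over tumors overlapped, and HLA-DRA over HLA-DPA1 was the exception. The first rank of HLA-DRA depends on length, 1280 exon bases against 5748 for HLA-DPA1. Without length, HLA-DPA1 stood above HLA-DRA in treated replicates 1 and 2, at 80.3 and 76.8 against 40.2 and 35.5 CPM. In treated replicate 3 HLA-DPA1 was lower, at 109.4 against 149.5 CPM. With the longest transcript as the length, HLA-DPB1 came to 13.0 RPKM, above HLA-DRB1.

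In untreated tumors the order was another one. HLA-DPA1 led at 2.99 ± 0.19 RPKM (SD, n = 3), above the range of every other member. HLA-DRB1 was at 1.001 ± 1.35 RPKM, HLA-DRB6 at 0.620 ± 0.682, HLA-DRB5 at 0.555 ± 0.542 and HLA-DRA at 0.544 ± 0.585, with overlapping ranges. HLA-DPB1 was at 0.26 ± 0.152 RPKM, and the DQ genes were at 0.0143 to 0.173 RPKM. Per kilobase, HLA-DRA thus ranked among the beta chains in untreated tumors and first in treated tumors. Its RPKM over the summed RPKM of the 3 DRB genes was 2.42, 2.48 and 2.496 in treated tumors and 0.666, 0.0707 and 0.232 in untreated tumors, the latter resting on 8, 1 and 36 HLA-DRA counts.

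The make-up of the family's counts varied between tumors, by group and by naming set, and the shares of the whole family's counts were not tested. The 10 genes held 2082, 1809 and 10164 counts in treated and 335, 242 and 698 in untreated tumors, or 0.0150%, 0.0146% and 0.0368% against 0.00211%, 0.00167% and 0.00307% of all counts. The DP genes took 62.5%, 64.3% and 37.5% of them in treated and 90.8%, 90.5% and 64.0% in untreated tumors. HLA-DRA took 25.3%, 24.6% and 41.6% against 2.39%, 0.413% and 5.16%. Replicate 3 thus had the smallest DP share and the largest HLA-DRA share of each group. The DRB genes held 214, 176 and 1660 counts in treated and 12, 14 and 153 in untreated tumors. Shares within DRB thus rest on few counts in untreated replicates 1 and 2. Among the DRB counts, HLA-DRB6 made up 18.7% ± 3.31 in treated and 33% ± 7.51 in untreated tumors (SD, n = 3; two-sided exact permutation p = 0.1, adjusted 0.18). HLA-DRB1 made up 50.3% ± 3.14 against 36.4% ± 11.7 (exact permutation p = 0.2, adjusted 0.3), a difference of 13.96 percentage points that was 8.28 without untreated replicate 1. HLA-DRB5 was at 30.9% ± 2.22 against 30.6% ± 6.83 (exact permutation p = 1), a difference within the spread.

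**Figure D2:**
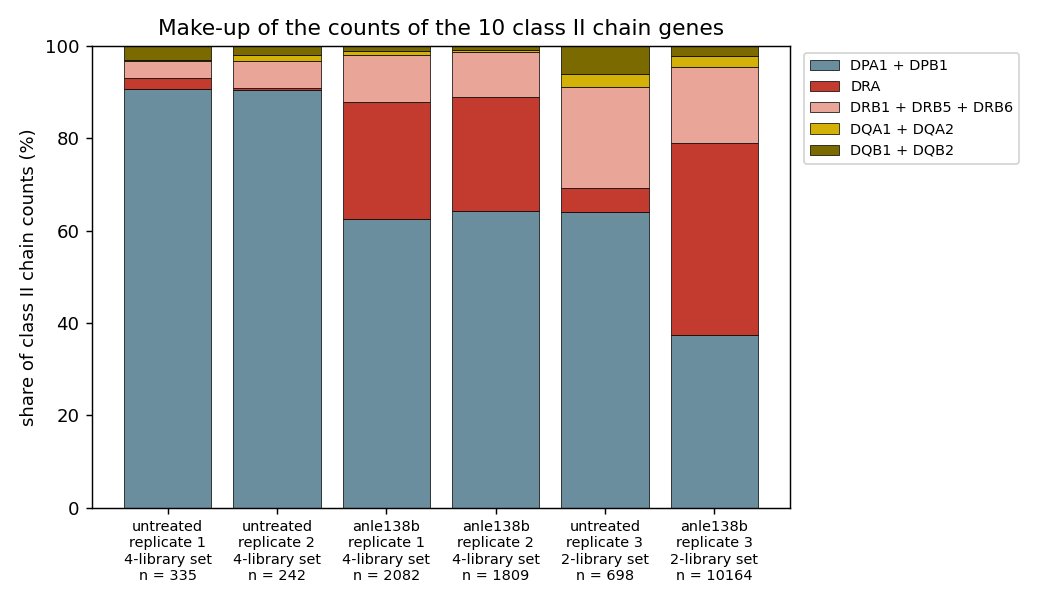
Share of the counts of the 10 class II chain genes (percent, stacked to 100) taken by DP, DRA, DRB, DQA and DQB genes in each tumor, with the number of counts below each bar. DP genes fill over 90% of the bars of untreated replicates 1 and 2, and HLA-DRA fills 24.6% to 41.6% of the treated bars.

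The DR genes and HLA-DQB1 were also called for naming set, and the DP genes were not. In the fit that holds both terms, the level in the 2-library set exceeded that in the 4-library set by 2.02 ± 0.19 for HLA-DRA, 2.38 ± 0.26 for HLA-DRB1, 1.89 ± 0.22 for HLA-DRB5, 2.12 ± 0.27 for HLA-DRB6 and 2.48 ± 0.29 for HLA-DQB1 on the log2 scale (SE, adjusted p = 0.000173, 0.000445, 0.000579, 0.0011 and 0.000658, edgeR). These are 5 of the 7 tested members, where 8.32% of genes were called higher and 7.14% lower in that set. HLA-DPA1 had a set difference of 0.30 ± 0.12 (adjusted p = 0.122) and HLA-DPB1 of 0.64 ± 0.22 (adjusted p = 0.0829). Without the low-count filter HLA-DPB1 was called too (0.67, adjusted p = 0.02, edgeR). Whether the set differences of DP and DR genes differ from each other was not tested. The 2-library set holds 1 tumor per group, so this difference rests on 2 libraries. The B cell markers, at 0.479 to 1.07 CPM in sum in the 4-library set, were at 1.91 CPM in anle138b replicate 3 and 3.78 CPM in untreated replicate 3. Of these 5 markers 0 passed the filter, and they did not all move alike. CD79A had 4, 0 and 0 counts in anle138b replicates 1, 2 and 3, and CD79B alone gave 1.27 of the 1.91 CPM. The sums of the other cell type marker lists overlapped between the sets. The part of such cells in the set difference was not tested.

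The treatment change was also compared between the sets. The log2 CPM differences were 6.83 in the 4-library set and 6.51 in the 2-library set for HLA-DRA, 3.59 and 3.40 for HLA-DRB5, 2.81 and 2.504 for HLA-DRB6, 2.21 and 2.61 for HLA-DPA1, 4.92 and 4.34 for HLA-DPB1, and 1.64 and 1.87 for HLA-DQB1. The interaction of treatment and naming set called 0 members and 0 of all tested genes at an adjusted p of 0.05 (edgeR, 2 residual degrees of freedom). Over all genes DESeq2 called 31 and limma 0. With edgeR the count over all genes reached 262 without the low-count filter and 436 without anle138b replicate 1. Members called stayed at 0 under each of the 11 alternatives run. HLA-DRB1, with an interaction of -1.47 ± 0.50 (adjusted p = 0.716, edgeR), was the 1 member at an unadjusted p under 0.05, as were 6.59% of all genes.

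**Figure D3:**
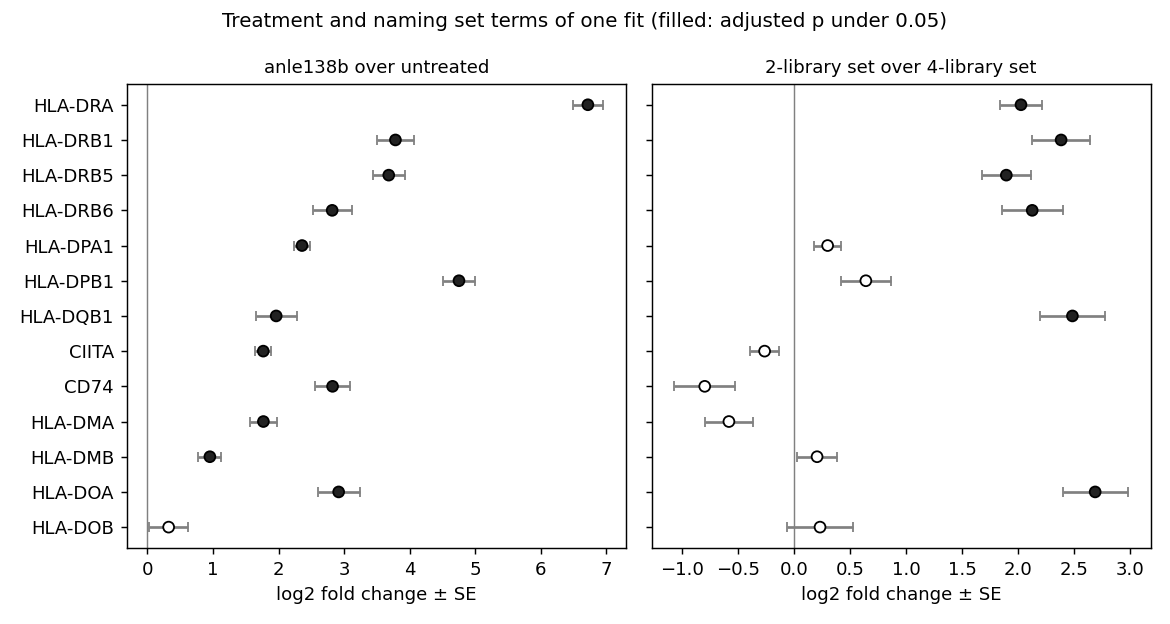
Log2 fold change ± SE of class II genes for anle138b over untreated (left) and for the 2-library set over the 4-library set (right), both from 1 edgeR fit to 6 tumors; filled points have an adjusted p under 0.05. HLA-DQA1, HLA-DQA2 and HLA-DQB2 did not pass the low-count filter and are not shown. On the left every DR, DP and DQ gene shown is filled and positive. On the right the DR genes, HLA-DQB1 and HLA-DOA are filled near 2 to 3 while HLA-DPA1 and HLA-DPB1 are open.

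Of 18 other genes of class II expression and peptide loading, 17 passed the filter, 5 rose and 0 fell, with a median log2 change of 0.14. Of all tested genes 0.656% were called higher and 0.397% lower. The list was drawn up with earlier results known and is described by its counts. CIITA, the transactivator, was at 33.9, 37.9 and 31.1 CPM in treated and 10.2, 11.6 and 8.61 CPM in untreated tumors, with the groups apart. It rose by 1.77 ± 0.12 (adjusted p = 0.000229, edgeR) and differed between the sets by -0.26 (adjusted p = 0.184). The promoter-bound partners of CIITA had 0 of 7 called, RFX5, RFXAP and RFXANK, the subunits of the X box factor, having log2 changes of 0.18, 0.14 and 0.03, the last with a sign that varied between settings.

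CD74, the invariant chain that guards the peptide groove, was at 369.6, 297.8 and 273.3 CPM in treated and 45.6, 76.8 and 22.5 CPM in untreated tumors. It rose by 2.82 ± 0.26 (adjusted p = 0.001, edgeR), and replicate 3 was the lowest of each group, where the DR genes had their highest values. Its set difference was -0.80 ± 0.27 (adjusted p = 0.0766). HLA-DMA and HLA-DMB, the pair that exchanges peptides in class II molecules, rose by 1.77 ± 0.21 and 0.95 ± 0.18 (adjusted p = 0.00357 and 0.0387, edgeR). HLA-DOA, the alpha chain of the DM inhibitor DO, had 28, 14 and 294 counts in treated and 3, 3 and 33 in untreated tumors. It rose by 2.92 ± 0.32 (adjusted p = 0.00308, edgeR), and its set difference of 2.69 ± 0.29 was called as well (adjusted p = 0.000404). Untreated replicates 1 and 2 were at 0.183 and 0.222 CPM of HLA-DOA, under the filter's cutoff of 0.659 CPM. HLA-DOA thus entered the test through the treated tumors. HLA-DOB, its partner chain, had 15, 22 and 41 counts against 17, 13 and 33 and a change of 0.32 that did not pass. The calls of HLA-DMB, HLA-DOA, HLA-DMA and CD74 were lost under 8 of 16, 3 of 15, 2 of 16 and 1 of 16 alternatives.

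Interferon gamma is the classical inducer of CIITA. Of 8 genes of its pathway, 6 passed the filter and 0 were called, with a median log2 change of 0.11. Of all tested genes 1.05% were called. Transcripts of IFNG, the ligand, had 0 counts in all 6 libraries. IRF1, a transcription factor that it induces, had a log2 change of 0.17. A ligand made by host cells would carry mouse sequence, and how mouse reads were handled is not given in the sources used here.

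Along chromosome 6 the chain genes lie among genes of other functions. From BTNL2 to COL11A2 there are 31 further genes, of which 11 passed the filter. HLA-DOA, HLA-DMA and HLA-DMB rose, the collagen gene COL11A2 fell by a log2 change of 1.16 ± 0.13 (adjusted p = 0.00324, edgeR), and 7 were not called. Over all tested genes 1.05% were called. The genes not called include TAP1, TAP2, PSMB8 and PSMB9, which serve class I presentation, with log2 changes of 0.06, 0.06, 0.01 and 0.15. These 4 genes sit between HLA-DQB1 and HLA-DMB, and the median change of all 11 was 0.11.

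**Figure D4:**
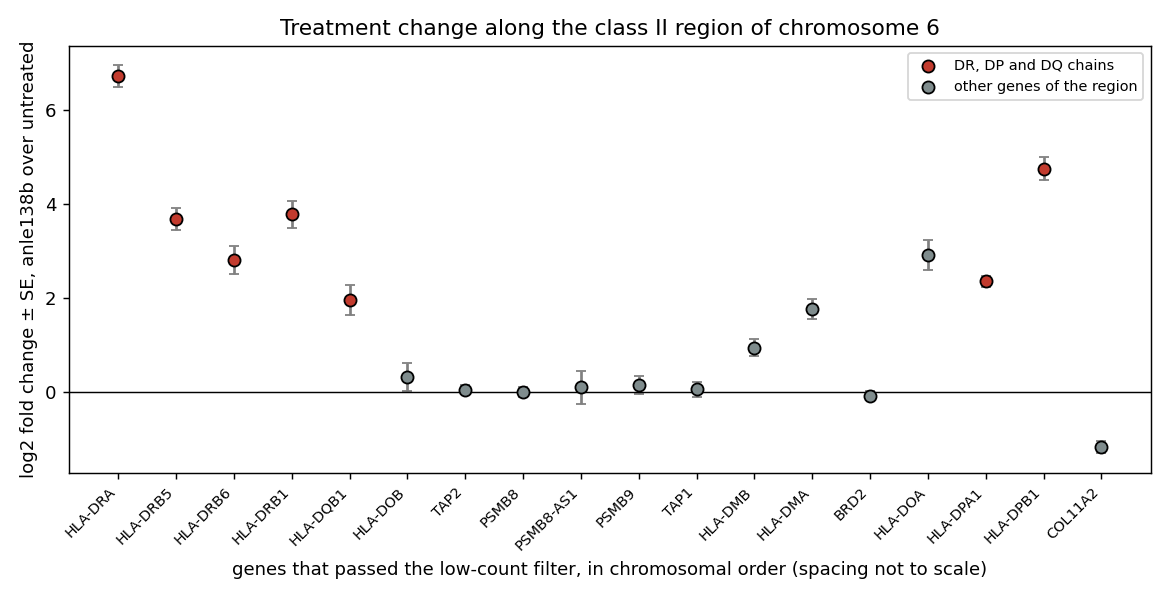
Log2 fold change ± SE (n = 3 tumors per group) of anle138b over untreated for each gene of the class II region that passed the low-count filter, in chromosomal order with even spacing, red for DR, DP and DQ chains and gray for other genes. HLA-DRA stands highest at 6.72, the genes from HLA-DOB to TAP1 lie near 0, and COL11A2 lies at -1.16.

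Genes outside the family were ranked by how closely they followed its mean profile over the 6 tumors, each gene's log2 CPM being centred within each naming set. The measure was the root mean square difference over 14241 genes with an average log2 CPM of at least 1. The 6 closest were DKK3, SERTAD4, CD74, HLA-DOA, SLITRK2 and RMEL3, at 0.541, 0.559, 0.604, 0.627, 0.664 and 0.757. The tested members themselves lay at 0.231 (HLA-DRB5) to 1.58 (HLA-DRA) from their own mean. DKK3, a secreted Wnt modulator, rose by 2.98 ± 0.24 and SERTAD4 by 3.41 ± 0.31 on the log2 scale (adjusted p = 0.000527 and 0.00095, edgeR). SLITRK2, a neuronal transmembrane protein gene, and the melanoma long non-coding RNA RMEL3 rose by 2.29 ± 0.27 and 3.52 ± 0.39 (adjusted p = 0.00353 and 0.00308, edgeR). All 6 genes were picked in these same tumors for following a profile that rises with treatment. Their rise is therefore part of the selection, and these p-values are no separate evidence.

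Other cells that express class II were looked for by their human markers. Host cells would carry mouse sequence, and how mouse reads were handled is not given in the sources used here. These sums therefore cannot show whether host cells of these kinds were present. Of 5 B cell markers 0 passed the filter, and their sum was 0.479 to 1.91 CPM in treated and 0.609 to 3.78 CPM in untreated tumors. The 6 dendritic cell markers summed to 3.06 to 3.51 against 3.19 to 4.07 CPM, with 1 passing and 0 called. The 7 monocyte and macrophage markers summed to 31.4 to 57.4 against 23.5 to 45.4 CPM, with 5 passing and 0 called. The 4 leukocyte markers summed to 12.5 to 14.3 against 11.3 to 15.7 CPM, and T cell markers to at most 0.297 CPM, with CD3D at 0 in all 6 libraries. Each of these ranges overlapped between the groups, and the part of such cells in the results was not tested. In bulk tumors, fewer cells of a kind and less RNA per cell cannot be told apart.

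How well reads can be assigned differs between members. Of the 50-base words in annotated transcripts, HLA-DRA shared 0% with another gene, HLA-DPA1 0.815%, HLA-DRB6 2.04%, HLA-DQA1 2.07%, HLA-DPB1 3.42%, HLA-DQB1 4.35%, HLA-DQB2 4.63%, HLA-DRB5 8.42%, HLA-DRB1 9.92% and HLA-DQA2 9.97%. The largest shared parts were HLA-DRB1 with HLA-DRB5 and HLA-DQA2 with HLA-DQA1. These are reference sequences, and the alleles of the line, as well as the handling of multiply mapped reads, are not given in the sources used here. Values of single DRB and DQ genes are therefore less certain than those of HLA-DRA or of the summed chains.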

How the data were processed

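Per the labels' protocols, TRIzol was used for RNA and Illumina's TruSeq RNA kit, version 2, for the libraries, which carry no strand mark. The authors deposited raw counts per gene, 1 file per tumor. The submitters' processing notes name bcl2fastq 2.17.1.14, STAR 2.5.2a, featureCounts 1.5.0-p1 and the build hg38. The settings for strand, multiply mapped and mouse reads, the read length and the annotation release are not given in the sources used here. Of 60617 identifiers, 58542 were in GENCODE release 29 (GRCh38), the source of symbols, positions, lengths and biotypes, and 0 rows named no gene.

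Groups came from the treatment label, and replicate numbers follow listing order and pair no tumors. To look for a library deposited more than once, replicates were compared by chi-square of their counts, with 8.97 and 9.16 per degree of freedom within a naming set and 21.5 to 49.7 across sets; each library entered as its own sample. Counts were tested with edgeR 4.0.16 in R 4.3.3: filterByExpr by group (minimum count 10, total 15), TMM scaling, and the quasi-likelihood F test with terms for treatment and naming set (3 residual degrees of freedom), with p-values adjusted by Benjamini-Hochberg over all genes at 0.05. Log2 CPM used a prior count of 2. Shares within chain groups were compared by exact permutation of the group labels over all tumors, which took no account of naming set. In the DP, DQA and DQB groups the shares of the paired genes mirror each other. The adjusted p-values of shares nevertheless count each gene as a separate test. Alternatives included limma 3.58.1 and DESeq2 1.42.0. The text names all 10 members, CIITA, the RFX subunits, CD74 and the DM and DO genes of the class II list, IRF1, the positional neighbours with the extreme changes and the 6 genes of closest profile. TAP1, TAP2, PSMB8, PSMB9, IFNG and CD3D were named after their values were seen. The interferon gamma list is given as counts, and 1 gene of it was left out. Members and lists were chosen with earlier results of these data known.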

Additional observations from a re-analysis of the deposited data

How the results depend on the processing

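All 7 tested members kept a positive log2 change under every alternative in which they could be fitted. Without the naming set term 2 members, 9 genes in all, 1 gene of the class II pathway list and 1 summed chain were called, against 7, 215, 5 and 5. Without a low-count filter 754 genes were called for treatment and 9 members for naming set. With at least 50 counts in 3 libraries, 3 summed chains and 3 members for naming set were called. DESeq2's Wald test called 412 genes. A test against a 2-fold change (glmTreat) called 26 genes and 3 of the pathway list. The 4-library set alone gave 92 genes, 3 of the pathway list and 3 summed chains, and there RFXANK changed by -0.10. The causes were not tested. Leaving out each tumor gave 6 to 8 members, 89 (without anle138b replicate 3) to 392 genes (without anle138b replicate 2), 3 to 5 pathway genes, 3 to 5 summed chains, and 5 to 6 members for naming set, with changes of -0.10 to 0.19 for RFXANK. The difference in share (treated minus untreated, percentage points) ranged from 8.28 to 19.96 for HLA-DRB1, -3.59 to 2.83 for HLA-DRB5, -1.36 to 16.7 for HLA-DQB1 and -16.7 to 1.36 for HLA-DQB2. The interaction called 0 members under 11 alternatives, and it was not run where a naming set held too few tumors. No paired analysis was possible because the labels give no replicate numbers. Depth limits the DQ genes most, with at most 12 counts of HLA-DQA1, HLA-DQA2 and HLA-DQB2 in 5 of 6 tumors.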
